A study of Mus musculus with 6 samples.

Results

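Integrins are cell surface receptors built from 1 alpha and 1 beta chain, and 10 genes of leukocyte integrin chains are described here in natural killer (NK) cells of mouse spleen. The genes were picked from the count table by symbol: Itgal, Itgam, Itgax, Itgae, Itga2 and Itga4 encode alpha chains and Itgb1, Itgb2, Itgb3 and Itgb7 encode beta chains. They are 10 of the 50686 genes of the table, and all 10 passed the filter on low counts that left 15458 genes for testing. One symbol, Itgam, has 2 rows in the table, and the row with the higher total was used, with the other reported beside it.

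The WT group held 3 libraries of NK cells from healthy C57BL/6J mice. The Eumyc group held 3 libraries from C57BL/6J mice given Eµ-myc lymphoma, a Myc-driven B cell tumour, by vein, with the spleens taken on day 14. In both groups B cells were removed with the 1D3 antibody and beads, cells were enriched on beads against CD49b, and cells with NK1.1 and without the T cell receptor beta chain were sorted. In the Eumyc samples alone, the cells that the CD49b beads did not hold were also sorted. CD49b is the protein of Itga2, so one of the 10 genes encodes the very molecule used to enrich the cells, and in every difference below the enrichment and the lymphoma cannot be told apart. Whether each sample is a different mouse is not stated in the labels. The p-values therefore cover the spread among these samples alone, and that spread may be technical.

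Alpha and beta chains reach the surface only as pairs, and signals inside the cell switch the pair from a bent to an extended form that binds ligand. The Itgb2 chain (CD18) pairs with Itgal to form LFA-1, which binds ICAM proteins and holds NK cells to their targets, and with Itgam (CD11b) or Itgax (CD11c) to form receptors for complement and fibrinogen. The Itgb1 chain pairs with Itga2 to bind collagen and with Itga4 to bind VCAM-1 and fibronectin, and the Itgb7 chain pairs with Itga4 or Itgae to bind the gut addressin MAdCAM-1 or E-cadherin. In mouse NK cells surface CD49b is used to tell NK cells from the related ILC1, and surface CD11b marks maturation.

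Library totals ran from 16407611 to 36534191 counts in WT and from 44456157 to 66615602 in Eumyc, so all Eumyc libraries were deeper. Of the 16 NK marker genes checked, 0 were without counts, and their summed level was 18372 to 18651 CPM (counts scaled to library size) in WT and 18462 to 19519 in Eumyc. The list did not move as one: 7 of the 16 genes fell, 3 rose and 6 did not pass. Those that fell were Klre1 (log2 fold change -0.82), Klrd1 (-0.70), Klrk1 (-0.61), Klrb1c (-0.48), Eomes (-0.39), Fcgr3 (-0.30) and Ncr1 (-0.28), and those that rose were Gzmb (1.74), Cd7 (1.57) and Il2rb (0.20). The sum is led by Gzma and Il2rb. Genes listed as markers of other cells also had counts, and such sums do not measure how much RNA came from those cells. The 14 monocyte and macrophage genes summed to 1149 to 1268 CPM in WT and 1592 to 2191 in Eumyc. Ccr2 led this sum, with a mean of 832 CPM in WT and 978 in Eumyc. The 12 neutrophil genes summed to 4.13 to 6.46 CPM in WT and 61.2 to 88.4 in Eumyc, and 10 of the 11 tested rose. The 12 T cell genes summed to 467 to 494 CPM in WT and 534 to 592 in Eumyc. Of these 4 rose, 1 (Cd28) fell and 7 did not pass. Trbc1, which led the T cell sum, had a mean of 261 CPM in both groups and did not pass. The 12 ILC1 genes, the integrin gene Itga1 among them, summed to 177 to 213 CPM in WT and 353 to 551 in Eumyc. Of these 10 rose and 2 did not pass. The 11 dendritic cell genes summed to 38.7 to 54.4 CPM in WT and 65.5 to 84.7 in Eumyc, where 6 rose and 5 did not pass. The 12 B cell genes, markers of the lineage of the tumour, summed to 195 to 207 CPM in WT and 348 to 830 in Eumyc, and 9 of the 11 tested rose and 0 fell. Ighm led the B cell sum, with a mean of 181 CPM in WT and 401 in Eumyc. Of the 10 erythroid genes 9 had a row of counts. These summed to 39.2 to 54.3 CPM in WT and 104 to 124 in Eumyc, and 8 of the 9 rose. In bulk RNA, fewer cells of a type and less RNA per cell cannot be told apart.

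In the edgeR quasi-likelihood test over all genes, with Benjamini-Hochberg adjusted p under 0.05 as the threshold, 2 of the 10 integrin genes rose in Eumyc, 4 fell and 4 did not pass. Itgb3 and Itgax rose, and Itgae, Itga2, Itga4 and Itgb7 fell, while Itgal, Itgb2, Itgam and Itgb1 did not pass. Of all tested genes 48.8% were called, 25.7% higher and 23.1% lower, so a call by itself was common in this comparison. The CPM of the groups did not overlap for 7 of the 10 genes, where 60.2% of all tested genes showed this. The median log2 fold change of the 10 genes was -0.22, and that of all tested genes was -0.00499. Against a change of 1.5-fold, Itgb3 and Itgae passed, 2 of the 10 genes, where 11.8% of all tested genes did.

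**Figure D1:**
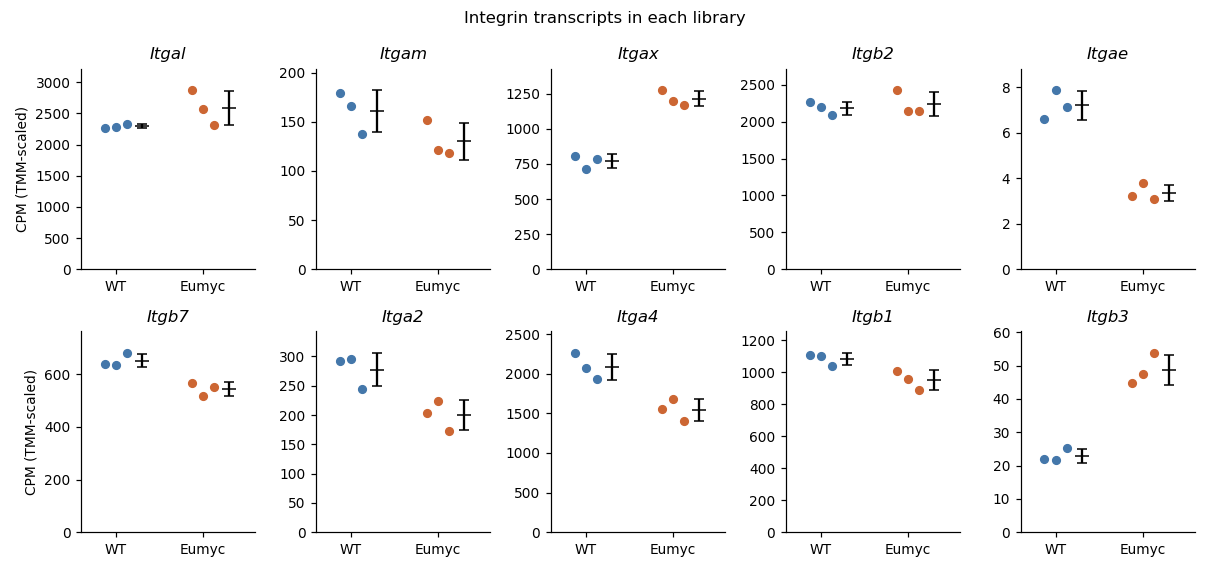
TMM-scaled CPM (vertical axis, starting at 0) of the 10 integrin genes in each of the 3 WT and 3 Eumyc libraries (points), with the mean and SD of each group in black. Itgax and Itgb3 are higher in all 3 Eumyc libraries, and Itgae is at 6.60 to 7.87 CPM in WT and 3.07 to 3.77 CPM in Eumyc.

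Of the Itgb2 family, the beta chain itself was among the most abundant of the 10 transcripts and did not pass the test. Itgb2 measured 2265, 2197 and 2086 CPM in the WT libraries and 2428, 2144 and 2141 in those of Eumyc. The groups overlapped, the log2 fold change was 0.04 ± 0.08 (SE), and the edgeR adjusted p was 0.728. Its direction turned with total-count scaling (-0.000505), with upper quartile scaling (-0.00436) and without Eumyc 1 (-0.01).

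Itgal, the alpha chain of LFA-1, measured 2265, 2288 and 2338 CPM in the WT libraries and 2875, 2574 and 2317 in those of Eumyc. Eumyc 1 was the highest library, and Eumyc 3 lay within the WT range. The difference did not pass (log2 fold change 0.17 ± 0.09 SE, edgeR adjusted p = 0.140), and without Eumyc 3 it did (0.25, adjusted p = 0.0430). Itgax, the alpha chain CD11c, which NK cells carry as well as dendritic cells, measured 809, 715 and 783 CPM in the WT libraries and 1276, 1199 and 1169 in those of Eumyc. All 3 Eumyc libraries lay above all 3 WT libraries. Itgax rose by 0.66 ± 0.07 (SE) on the log2 scale, or 1.58-fold (edgeR adjusted p = 0.000329). In the authors' deposited table its log2 fold change was 0.65.

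Itgam, the alpha chain CD11b, measured 179, 166 and 137 CPM in the WT libraries and 152, 121 and 118 in those of Eumyc. The groups overlapped, since Eumyc 1 lay above WT 3. The log2 fold change was -0.30 ± 0.12 (SE) with an edgeR adjusted p of 0.0670, and Itgam passed under 9 of 19 other settings, always lower in Eumyc, among them without WT 3 (-0.40, adjusted p = 0.0171) and without Eumyc 1 (-0.41, adjusted p = 0.0183). In the authors' deposited table it had a log2 fold change of -0.30 and an adjusted p of 0.0239. The second Itgam row (ENSMUSG00000108596) held 6.57, 9.82 and 5.33 CPM in the WT libraries and 5.77, 5.07 and 3.72 in those of Eumyc (log2 fold change -0.60 ± 0.25 SE, edgeR adjusted p = 0.0817). In the GENCODE M21 annotation 3450 of the 5024 exon bases of Itgam, or 68.7%, also belong to this second identifier. The level of Itgam is uncertain, because the sources used here do not give how reads in shared exons were counted.

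The Itgam and Itgal chains share 1 partner, and their ratio within a library does not depend on scaling. The share of Itgam among the length-scaled counts of the 4 alpha chains of Itgb2 was 6.38%, 6.15% and 4.94% in WT and 4.03%, 3.53% and 3.70% in Eumyc. The share of Itgax was 30.2%, 27.7% and 29.6% in WT and 35.5%, 36.6% and 38.4% in Eumyc. The share of Itgal went from 63.7% ± 1.57 to 57.2% ± 1.43 (SD, n = 3 each) and that of Itgad from 1.30% ± 0.274 to 2.21% ± 0.121 (SD, n = 3 each). For all 4 chains the groups did not overlap, with a two-sided exact permutation p of 0.1, the smallest that 3 against 3 libraries allow, so none could reach 0.05. The log2 ratio of Itgam to Itgal was -3.28, -3.40 and -3.71 in WT and -3.86, -4.03 and -3.91 in Eumyc (exact permutation p = 0.1). With lengths that leave out shared exon bases, an alternative chosen after seeing the data, the mean share of Itgam in WT was 16.4% in place of 5.82%, so its size depends on the length used. With those lengths the mean share of Itgal was 56.4% in WT and 52.6% in Eumyc, and the mean log2 ratio of Itgam to Itgal was -1.79 in WT and -2.26 in Eumyc, again lower in Eumyc.

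**Figure D2:**
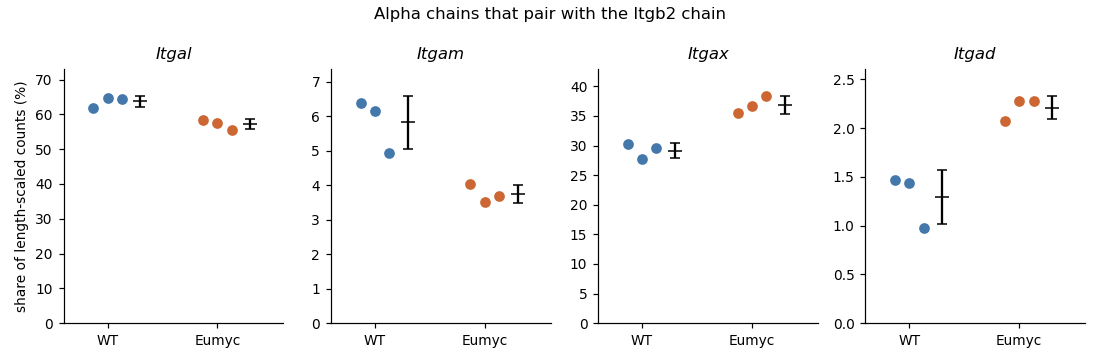
Share of each of the 4 alpha chains that pair with Itgb2 in their summed counts per kb of exon (percent, axes starting at 0) in each library (points), with mean and SD in black. Itgax takes 35.5% to 38.4% in Eumyc and 27.7% to 30.2% in WT, and Itgal and Itgam take smaller shares in Eumyc.

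Among the integrins of Itgb7, the beta chain and both alpha partners fell. Itgb7 measured 638, 637 and 681 CPM in the WT libraries and 565, 516 and 552 in those of Eumyc, with every Eumyc library below every WT library. Its log2 fold change was -0.26 ± 0.06 (SE, edgeR adjusted p = 0.00888). Itgae, the alpha chain CD103 of lymphocytes in epithelia, was the scarcest of the 10 transcripts at 6.60, 7.87 and 7.13 CPM in WT and 3.21, 3.77 and 3.07 CPM in Eumyc. The groups were well apart, although the values rest on 119 to 291 counts per library. Itgae fell by 1.10 (SE 0.16) on the log2 scale, to 0.465 of its WT level (edgeR adjusted p = 0.000910), the largest drop among the 10 genes. Itga4 made up 98.9% to 99.1% of the length-scaled counts of these alpha chains in WT and 99.3% to 99.4% in Eumyc.

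Itga4, which pairs with Itgb7 and Itgb1, measured 2263, 2068 and 1938 CPM in the WT libraries and 1554, 1678 and 1402 in those of Eumyc. No Eumyc library reached the lowest WT library. Itga4 fell by 0.44 (SE 0.09) on the log2 scale (edgeR adjusted p = 0.00498). Itgb1, the common beta chain, measured 1105, 1102 and 1037 CPM in the WT libraries and 1006, 960 and 887 in those of Eumyc. These groups did not overlap either, yet Itgb1 missed the threshold (log2 fold change -0.19 ± 0.07 SE, edgeR adjusted p = 0.0534). It passed under 9 of 18 other settings, with adjusted p-values from 0.0144 to 0.0485, and in the authors' deposited table its adjusted p was 0.00477.

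Itga2, the CD49b chain of the beads, measured 292, 296 and 245 CPM in the WT libraries and 204, 224 and 173 in those of Eumyc. All 3 Eumyc libraries were below all 3 WT libraries. Itga2 fell by 0.47 (SE 0.11) on the log2 scale, to 0.721 of its WT level (edgeR adjusted p = 0.00750). Since Eumyc cells without bead-bound CD49b also entered the sort, this difference cannot be told apart from the enrichment step. The log2 ratio of Itga2 to Itga4 was -1.99, -1.83 and -2.01 in WT and -1.96, -1.93 and -2.05 in Eumyc, and the means differed by -0.04 (exact permutation p = 0.7). Its sign turned without WT 2 (0.0187). Of the length-scaled counts of the alpha chains that can pair with Itgb1, Itga2 took 17.3% ± 1.06 in WT and 16.2% ± 0.724 in Eumyc (SD, n = 3 each), with overlapping groups.

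Itgb3, the beta chain that pairs with Itgav to bind vitronectin and with Itga2b on platelets, measured 22.0, 21.6 and 25.4 CPM in the WT libraries and 44.9, 47.5 and 53.8 in those of Eumyc. It rose by 1.09 ± 0.10 (SE) on the log2 scale, or 2.13-fold (edgeR adjusted p = 0.000206), the largest rise among the 10 genes. Its partner gene Itgav also rose, from 93.4 ± 3.55 to 125 ± 8.82 CPM (SD, n = 3 each; log2 fold change 0.42 ± 0.07 SE, edgeR adjusted p = 0.00135), while Itga2b fell from 4.99 ± 1.05 to 3.15 ± 0.455 CPM (-0.68 ± 0.21 SE, edgeR adjusted p = 0.0269). The Itga2b call was lost without WT 1, WT 2, Eumyc 1 or Eumyc 3 (adjusted p = 0.0850, 0.105, 0.0532 and 0.0977) and at equal depth (0.108). The 12 megakaryocyte and platelet genes, Itga2b among them, summed to 15.2 to 23.4 CPM in WT and 14.8 to 15.3 in Eumyc, led by Gp1bb and Itga2b. Of the 6 tested genes of that list 3 fell (Gp1ba, Gp1bb and Itga2b) and 2 rose, Vwf from 0.377 to 2.19 CPM and Ppbp from 0.0820 to 0.445 CPM (edgeR adjusted p = 0.00106 and 0.00660), and the platelet gene Pf4 was at most 0.211 CPM in any library. The part of these cells in the Itgb3 difference was not tested.

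Monocytes and macrophages carry Itgam, Itgax, Itgad and Itgb3 as well. Of the 14 genes on their list 9 rose and 1, Ly6c2, fell. Csf1r, the receptor that defines these cells, measured 48.3, 45.2 and 33.0 CPM in the WT libraries and 344, 145 and 191 in those of Eumyc, and 0 of the 14 genes were without counts. Eumyc 1 was the highest Eumyc library for Csf1r and for the summed list (2191 CPM, against 1592 and 1606). In that library Itgax (1276 CPM) and Itgam (152 CPM) had their highest Eumyc values, and Itgb3 (44.9 CPM) its lowest. Itgal (2875 CPM), Itgb2 (2428), Itgb1 (1006) and Itgb7 (565) also had their highest Eumyc values in Eumyc 1. Itga2, Itga4 and Itgae had theirs in Eumyc 2. Itgad measured 70.0, 70.1 and 65.2 CPM in the Eumyc libraries. The part of monocytes and macrophages in the Itgax, Itgad and Itgb3 differences was not tested.

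**Figure D3:**
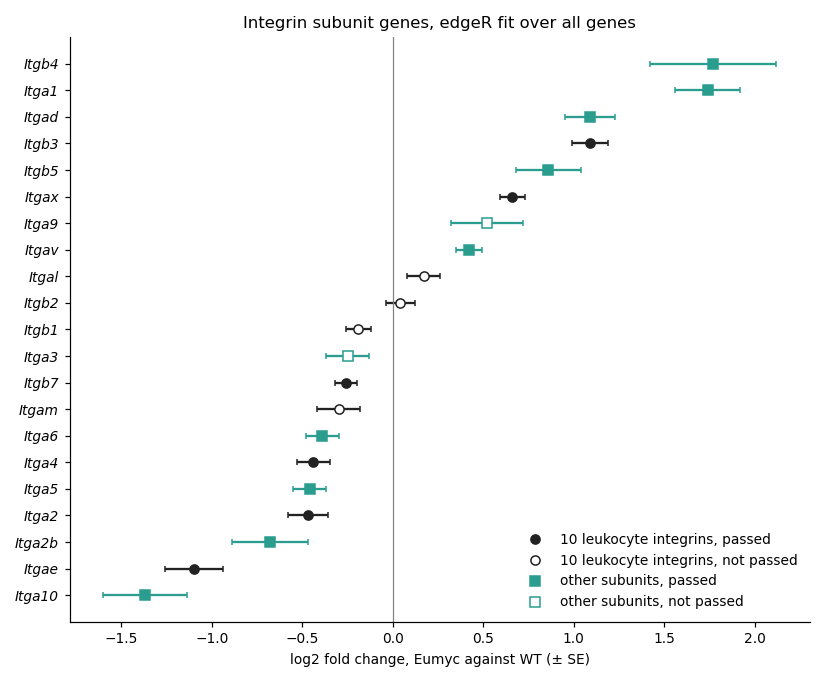
Log2 fold change of Eumyc against WT with its SE for the 10 leukocyte integrin genes (circles) and the 11 other tested integrin subunits (squares). Filled symbols passed the edgeR test, and the genes run from Itga10 (-1.37) to Itgb4 (1.77).

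Of the 16 other integrin subunit genes of the mouse, 11 were tested, of which 5 rose, 4 fell and 2 did not pass (median log2 fold change 0.42). Among all tested genes 25.7% rose and 23.1% fell. Itga1, a collagen receptor chain of ILC1 and tissue-bound lymphocytes, rose from 10.6 ± 2.31 to 34.9 ± 6.25 CPM, and Itgad, the fourth alpha chain of Itgb2, from 32.0 ± 6.71 to 68.4 ± 2.83 CPM (SD, n = 3 each). Itgb5, a partner of Itgav, rose by 0.86 ± 0.18 (SE) and the laminin receptor chain Itgb4 by 1.77 ± 0.35, the latter from 0.430 to 1.46 CPM. The fibronectin receptor chain Itga5 fell from 83.1 ± 4.84 to 60.4 ± 5.98 CPM, and the laminin receptor chain Itga6 from 65.2 ± 7.56 to 49.6 ± 2.63 CPM. Itga10 fell from 4.88 ± 1.17 to 1.88 ± 0.233 CPM. Itga9 (log2 fold change 0.52 ± 0.20 SE, edgeR adjusted p = 0.0558) and Itga3 (-0.25 ± 0.12 SE, 0.129) did not pass. Itga7, Itga8, Itga11 and Itgb8 had too few counts to be tested, and Itgb6 had 0 counts in every library.

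Per kilobase of exon, which allows levels to be compared between genes, the order of the 10 transcripts in WT was Itgb2 (715 CPM per kb), Itgal (350), Itgb1 (265), Itgb7 (235), Itgax (160), Itga4 (149), Itga2 (38.9), Itgam (31.9), Itgb3 (3.90) and Itgae (1.57). The ranges over the libraries overlapped between Itgax and Itga4 and between Itga2 and Itgam. In Eumyc, Itgax came next after Itgal at 253 CPM per kb, before Itgb1 (233) and Itgb7 (197), and its range overlapped that of Itgb1. The other genes kept their order in Eumyc, with Itgb2 at 733, Itgal at 394, Itga4 at 111, Itga2 at 28.1, Itgam at 25.9, Itgb3 at 8.26 and Itgae at 0.731 CPM per kb. Itga2 and Itgam again overlapped. The place of Itgam in this order is uncertain, since 3450 of its 5024 exon bases are shared. With lengths that leave out shared bases, its mean share among the Itgb2 partners in WT was 16.4% in place of 5.82%.

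The coordinates of the files are on GRCm38 and span whole genes, exons and introns together. On chromosome 7 lie Itgal (127296260 to 127335138), Itgam (128062640 to 128118491) and Itgax (128129547 to 128150657), and on chromosome 2 Itga4 (79255426 to 79333123). Chromosome 13 holds Itga2 (114835916 to 114932041), chromosome 11 holds Itgae (73090583 to 73147446) and Itgb3 (104608000 to 104670476), and chromosome 8 holds Itgb1 (128685654 to 128733200). Itgb2 lies on chromosome 10 (77530252 to 77565708) and Itgb7 on chromosome 15 (102215995 to 102231935). All 10 are protein-coding in the table.

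At 2 places neighbouring integrin genes had log2 fold changes of unlike sign, though not all of them passed the test. On chromosome 7 the gap between Itgam and Itgax is 11.1 kb and that between Itgax and Itgad 3.72 kb, all 3 on the plus strand. The first gap holds 1 other gene, and the second Itgam row (128062683 to 128128160) reaches into it. Itgax and Itgad rose by 0.66 and 1.09 on the log2 scale, while Itgam had a log2 fold change of -0.30 and did not pass. On chromosome 13 the gap between Itga2 and Itga1, both on the minus strand, is 26.0 kb. Itga2 fell by 0.47, and Itga1 rose by 1.74 ± 0.18 (SE, edgeR adjusted p = 0.000310), from 9.81, 8.76 and 13.2 CPM in WT to 37.3, 27.9 and 39.7 CPM in Eumyc.

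**Figure D4:**
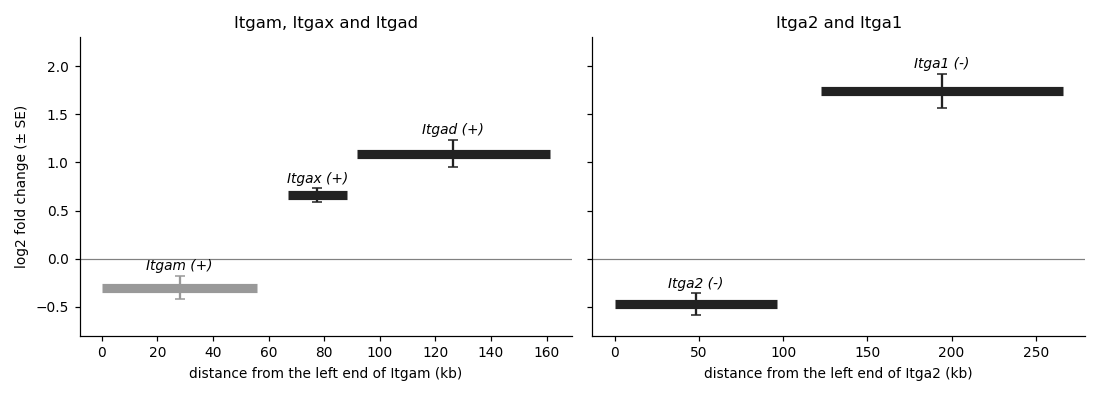
Map of 2 groups of neighbouring integrin genes to scale (horizontal axis, kb from the left end of the first gene; strand in parentheses), each gene drawn as a bar at its log2 fold change with its SE. Itgam (grey, not passed) lies below 0 beside Itgax and Itgad, and Itga2 lies below 0 beside Itga1. Other genes and the second Itgam row are not drawn.

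The stretches just upstream of these genes are shown because neighbours with unlike changes have promoters of their own. They are the 250 bases before the RefSeq start on GRCm38.p6, 5′ to 3′ on the gene's strand, for Itgam (chr7:128062390-128062639, plus), Itgax (chr7:128129300-128129549, plus), Itga2 (chr13:114932101-114932350, minus) and Itga1 (chr13:115101965-115102214, minus). Capitals mark matches to 4 motifs, searched on both strands.
Itgam: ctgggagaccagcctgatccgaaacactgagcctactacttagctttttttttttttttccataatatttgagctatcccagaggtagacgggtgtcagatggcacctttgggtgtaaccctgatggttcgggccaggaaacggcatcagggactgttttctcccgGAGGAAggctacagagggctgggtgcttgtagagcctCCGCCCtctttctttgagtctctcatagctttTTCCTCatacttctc
Itgax: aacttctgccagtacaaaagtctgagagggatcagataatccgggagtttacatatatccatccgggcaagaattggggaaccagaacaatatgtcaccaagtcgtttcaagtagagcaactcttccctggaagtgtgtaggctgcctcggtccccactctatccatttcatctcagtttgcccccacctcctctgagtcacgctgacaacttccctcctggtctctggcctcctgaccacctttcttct
Itga2: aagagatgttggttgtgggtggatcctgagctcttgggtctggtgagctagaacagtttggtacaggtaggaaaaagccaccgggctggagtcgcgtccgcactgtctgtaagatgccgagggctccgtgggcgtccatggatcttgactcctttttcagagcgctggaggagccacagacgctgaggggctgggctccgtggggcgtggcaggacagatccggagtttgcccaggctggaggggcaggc
Itga1: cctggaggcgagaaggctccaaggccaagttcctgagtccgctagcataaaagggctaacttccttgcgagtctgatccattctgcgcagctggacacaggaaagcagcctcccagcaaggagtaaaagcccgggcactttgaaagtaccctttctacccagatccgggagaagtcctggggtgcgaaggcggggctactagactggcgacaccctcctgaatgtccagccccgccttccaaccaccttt

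The 4 motifs were GAGGAA (PU.1 type, found in 23.3% of 32851 RefSeq promoter windows of this length), TGTGGT (RUNX type, 14.0%), TCACAC (T-box type, 12.3%) and GGGCGG (SP or KLF type, 32.7%). The Itgam window held 3 matches, with GAGGAA or its reverse complement beginning 84 and 15 bases before the start and the reverse complement of GGGCGG beginning 47 bases before it. The windows of Itgax, Itga2 and Itga1 held 0 matches to these letters. Promoter sequences were matched for 6 of the 10 genes.

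Genes that switch integrins on or tie them to actin were described by a list of 45, of which 42 were tested. On it 15 rose, 7 fell and 20 did not pass, with a median log2 fold change of 0.07. Calls were about as common over all tested genes, of which 25.7% rose and 23.1% fell. Fermt3 and Tln1, which encode kindlin-3 and talin, the proteins that bind beta chain tails and extend the receptor, rose from 319 ± 16.9 to 419 ± 13.6 CPM and from 1910 ± 38.6 to 2356 ± 193 CPM (SD, n = 3 each). Among the list genes whose mean reached 10 CPM in a group, Adap1, Actn4, Lyn and Dok1 had the largest rises, by 1.08 ± 0.09, 0.69 ± 0.05, 0.64 ± 0.13 and 0.51 ± 0.08 (SE) on the log2 scale. Below that level Parvb rose by 2.44 and Ptk2 by 0.95, to 2.28 and 1.32 CPM. Actn4 encodes an actin-binding alpha-actinin, Lyn a SRC family kinase and Dok1 an adaptor that competes with talin for the beta tail. Adap1 encodes a GTPase-activating protein for ARF6 and is not the integrin adaptor ADAP, the product of Fyb, which missed the threshold (201 ± 8.67 and 208 ± 16.1 CPM).

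The 4 largest drops on that list were those of Rasgrp2, Rap1gap2, Arhgap35 and Cyth1. Rasgrp2, the calcium-regulated activator of the integrin switch RAP1, measured 486, 601 and 427 CPM in the WT libraries and 326, 313 and 251 in those of Eumyc. It fell by 0.77 (SE 0.14) on the log2 scale (edgeR adjusted p = 0.00251), with no overlap between groups. Rap1gap2, which turns RAP1 off, fell by 0.45 (SE 0.13, edgeR adjusted p = 0.0215) with overlapping groups, and its call was lost without WT 1, WT 2, Eumyc 2 or Eumyc 3 (0.0737, 0.0898, 0.0725 and 0.0785). Arhgap35 and Cyth1, the latter encoding cytohesin-1, which binds the tail of Itgb2, fell by 0.44 (SE 0.10) and 0.33 (SE 0.05). The count that fell was 4 without WT 1 and 4 without WT 2. The switch genes themselves differed, as Rap1a rose from 130 ± 11.6 to 167 ± 9.46 CPM and Rap1b, with 748 ± 59.5 and 793 ± 63.5 CPM, missed the threshold (edgeR adjusted p = 0.428).

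Of 28 genes for integrin ligands 19 were tested, and 9 rose, 2 fell and 8 did not pass (median log2 fold change 0.42). Over all tested genes 25.7% rose and 23.1% fell. Spp1, which encodes osteopontin, a ligand of Itgav, Itga4 and Itgb3 integrins, measured 3.07, 0.866 and 1.62 CPM in the WT libraries and 64.9, 50.1 and 51.0 in those of Eumyc. It rose by 4.93 ± 0.35 (SE) on the log2 scale, by 5.61 without WT 1 and by 4.50 without WT 2, the ends of the leave-one-out range. C3, the complement protein whose fragment iC3b binds Itgam and Itgax integrins, rose by 3.27 ± 0.39, and Thy1 rose by 1.03 ± 0.22. The mean of these genes and of Fn1 reached 10 CPM in a group. Below that level Col4a2 (5.76), Col4a1 (3.41), F11r (2.51) and Vwf (2.44) also rose, to 1.54, 1.37, 3.51 and 2.19 CPM. Fn1, the fibronectin gene, was at 32.1, 7.18 and 3.04 CPM in Eumyc, so Eumyc 1 set its mean. Its log2 fold change was 3.51 ± 0.89 (SE, edgeR adjusted p = 0.0118), but 2.04 without Eumyc 1, and the call was lost without WT 2 (adjusted p = 0.0588) and with limma voom (0.150), also with quality weights (0.114).

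The 2 ligand genes that fell were Icam2, which encodes a ligand of LFA-1, from 77.1 ± 6.30 to 53.7 ± 2.43 CPM, and Vcam1, the ligand of Itga4 integrins, from 43.6 ± 11.2 to 27.8 ± 7.16 CPM (SD, n = 3 each). Vcam1 had overlapping groups and an edgeR adjusted p of 0.0421. Its call was lost without WT 1, WT 2, Eumyc 1 or Eumyc 2 (0.125, 0.173, 0.111 and 0.0800), which left 1 lower gene on the list in each case. Icam1, the main ligand of LFA-1, had 182 ± 27.6 and 173 ± 9.31 CPM and missed the threshold (edgeR adjusted p = 0.581). The E-cadherin gene Cdh1, whose product binds Itgae, stood at 0.880 and 0.988 CPM on average.

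Levels of the other genes were compared with those of Itga2 and Itgam over the 6 libraries, by Pearson correlation of log2(CPM + 1) among 8668 protein-coding genes whose mean reached 10 CPM. The 3 most like Itga2 were Ash1l (r = 0.999), Zfp318 (0.998) and Zbtb2 (0.996), and for Itgam they were Aqr (0.992), Ube3b (0.990) and Klf10 (0.989). These values are a description over 6 points that share the group difference and each library's depth. As for Itga2, the lowest library of Ash1l was Eumyc 3, at 92.3 CPM, and the highest WT 2, at 170 CPM.

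**Figure D5:**
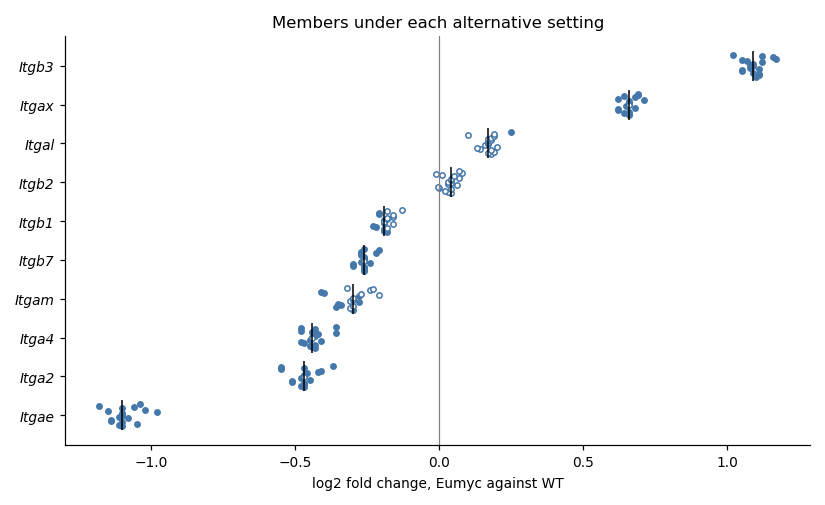
Log2 fold change of the 10 integrin genes in the reported fit (black bars) and under each alternative (blue points, filled where the adjusted p was under 0.05). Every gene but Itgb2 keeps 1 direction throughout, while points of Itgb2 lie on both sides of 0.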

How the data were processed

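RNA of sorted splenic NK cells was sequenced in 6 libraries. The deposited counts are whole-number counts per Ensembl gene. The tools named in the submitters' processing notes are DESeq2 1.10.1, HTSeq 0.6.1 and STAR 2.5.2, and the builds are GRCm38 and mm10. For the strand setting and the handling of shared exons, the entry is: not given in the sources used here. The authors' deposited table of 10292 genes gives log2 fold changes, p-values, a mean signal of normalized counts and a Wald score, of which the first 2 kinds were used.

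Counts were fitted with edgeR 4.0.16 in R 4.3.3 (filterByExpr at a minimum count of 10, TMM scaling, group alone, two-sided quasi-likelihood test). P-values were Benjamini-Hochberg adjusted over 15458 genes, and SEs come from the F statistic. CPM are TMM-scaled, while sums of marker lists are CPM of all counts. Exon lengths are unions from GENCODE M21. The fits were tested on simulated data. The genes and lists were chosen with earlier results of these data known. Genes named beyond the 10 followed a rule: other integrin subunits whose mean reached 1 CPM in a group, and the 4 largest called changes in each direction among list genes with at least 10 CPM. Fermt3, Tln1, Rap1a, Rap1b, Fyb, Icam1, Cdh1, Csf1r, Ly6c2, Pf4, the low-count list genes, the NK, B cell and platelet markers and the genes with integrin-like symbols were named after their values were seen. The same holds for Ccr2, Trbc1, Cd28 and Tgfb1. Alternatives were DESeq2 1.42.0, limma 3.58.1 voom, other scalings and filters, a 1.5-fold threshold, a replicate block, equal depth and leaving out each library. Figures were drawn with matplotlib 3.10.9.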

Additional observations from a re-analysis of the deposited data

How the results depend on the processing

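Itgae and Itgb3 kept their direction and their call under all 18 alternatives, and Itga2, Itga4, Itgax and Itgb7 under all but the test against 1.5-fold. That test called 1260 genes higher and 568 lower, with 1 and 1 of the 10 integrin genes, 3 and 1 of the other subunits, 2 and 0 of the activation genes and 0 of the ligand genes lower. A filter of 3 CPM in 3 libraries left 5 ligand genes higher, as fewer genes were tested. Total counts and upper quartile scaling turned Itgb2 (-0.000505 and -0.00436), as did leaving out Eumyc 1 (leave-one-out range -0.01 to 0.08). When 1 library was left out, the activation genes called lower numbered 4 to 8 and the ligand genes called lower 1 to 2, and the log2 ratio of Itga2 to Itga4 differed by -0.0713 to 0.0187. Called lower among the 10 genes were 4 in the reported fit and 6 with DESeq2, voom with quality weights, total counts, upper quartile or the replicate block, or without WT 3 or Eumyc 1, as Itgam and Itgb1 then passed. With the replicate number as a block 2 of the 10 genes were higher and 6 lower, and over all genes 4176 were higher and 3684 lower. Libraries with the same number had correlations of 0.0404, 0.0985 and 0.126 between their deviations from the group means. Pairs with unlike numbers had -0.119 to 0.0349, so each library correlated best with its own number. The labels do not say whether libraries with the same number were handled together, and this was not tested. At equal depth Itga2b lost its call (adjusted p = 0.108), while Itgae (-0.98) and Itgb4 (1.85) kept theirs.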

Other observations

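Some genes with integrin-like symbols encode no subunit described above. Itgb2l, a relative of Itgb2 known from neutrophils, had 1.54 ± 0.116 CPM in the WT libraries and 0.965 ± 0.426 in those of Eumyc (SD, n = 3 each; edgeR adjusted p = 0.171), while the summed neutrophil markers were higher in every Eumyc library. Itgb1bp1, one of the activation genes counted above, whose product ICAP1 binds the tail of Itgb1, was at 33.1 ± 0.752 and 38.1 ± 3.24 CPM with no overlap between groups and did not pass (edgeR adjusted p = 0.0704). Itgb3bp, a centromere protein gene despite its name, was at 5.03 ± 0.831 and 5.05 ± 0.898 CPM (SD, n = 3 each).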
